A study of Mus musculus with 12 samples.

Results

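Fatty acid and cholesterol synthesis genes encode the enzymes that build fatty acids, triacylglycerol and sterols from acetyl-CoA, together with the SREBP proteins that control their transcription. The 35 genes described here were listed by symbol for their known part in the lipogenesis of mammary epithelium and in SREBP control. The rule uses no measured value, but the list was chosen with earlier results of these data known. All 35 were found among the 21960 genes of the deposited tables. By role they are 6 genes of fatty acid synthesis, 5 of desaturation and elongation, 5 of SREBP control, 6 of the mevalonate steps, 9 of the steps from squalene to cholesterol and 4 of triacylglycerol synthesis.

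RNA was sequenced from 12 snap-frozen whole mammary tumors of female C57BL/6 mice in which the MMTV promoter, active in mammary epithelium, drives the polyoma middle T oncoprotein (PyMT). Each tumor gave 1 library of total RNA, and levels are given as TPM, a share of the transcripts in a library that is per transcript length and so can be set side by side between genes. All 21960 genes together summed to between 609418 TPM in IgG1 replicate 1 and 725506 TPM in DOX/anti-PD-1 replicate 2, and the read depth behind these values is unknown. The tumors form 4 groups of 3. The IgG1 group received a control antibody, anti-mouse IgG1, and the anti-PD-1 group received clone 4H2, an antibody that blocks the PD-1 receptor of T cells. Both of these groups began treatment when tumors measured 0.6 cm across, and their first antibody dose was 20 mg/kg and later ones 10 mg/kg. The DOX/IgG1 and DOX/anti-PD-1 groups started at 1.0 cm and received 5 mg/kg of doxorubicin, a topoisomerase poison, followed a day later by 10 mg/kg of the respective antibody. The labels give weekly treatment over 5 weeks for every group, whereas the study's methods give that schedule for the doxorubicin groups and a shorter course, with antibody doses closer together, for the other groups. The age of the mice is not given in the labels. Doxorubicin therefore cannot be told apart from the larger starting diameter, the lower first antibody dose or the schedule in any comparison with and without it. The header of DOX/IgG1 replicate 1 contains the word test and the headers of the 3 DOX/anti-PD-1 tumors end differently from the others, and the labels explain neither.

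Cells make fatty acids by turning citrate into cytosolic acetyl-CoA with Acly, carboxylating it with Acaca or Acacb, and joining the carbon units with Fasn, after which Scd enzymes add a double bond and Elovl enzymes lengthen the chain. Sterols start from the same acetyl-CoA and pass through mevalonate, farnesyl diphosphate and squalene before the ring is closed and trimmed to cholesterol. SREBP precursors sit in the endoplasmic reticulum, where Insig proteins hold their escort Scap while sterol is plentiful. When sterol is low, Scap carries the precursors to the Golgi, where they are cleaved to active factors: products of Srebf1 are known mainly for fatty acid genes and that of Srebf2 mainly for sterol genes. Mammary epithelium is known for making milk fat in lactation, and the adipocytes of the surrounding fat pad also make and store triacylglycerol.

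Promoters of 5 members that are known targets of SREBP are printed: Hmgcs1 as the member with a match to the sterol regulatory element, Fasn of fatty acid synthesis, and Lss, Cyp51 and Msmo1 of the steps from squalene to cholesterol. They come from RefSeq (build GRCm38.p6, mm10), run 5′ to 3′ on the gene's strand and hold 300 bases, 250 before the start and 50 after. Capitals mark matches to TCACNCCAC or its complement GTGGNGTGA, a form of the sterol regulatory element to which SREBP is known to bind. They also mark CCAAT or its complement ATTGG, the motif of NF-Y, a known partner of SREBP. The promoters are Hmgcs1 at chr13:119690101-119690400 on the plus strand, Fasn at chr11:120824498-120824797 on the minus strand, Lss at chr10:76531355-76531654 on the plus strand, Cyp51 at chr5:4104648-4104947 on the minus strand and Msmo1 at chr8:64733529-64733828 on the minus strand.
Hmgcs1: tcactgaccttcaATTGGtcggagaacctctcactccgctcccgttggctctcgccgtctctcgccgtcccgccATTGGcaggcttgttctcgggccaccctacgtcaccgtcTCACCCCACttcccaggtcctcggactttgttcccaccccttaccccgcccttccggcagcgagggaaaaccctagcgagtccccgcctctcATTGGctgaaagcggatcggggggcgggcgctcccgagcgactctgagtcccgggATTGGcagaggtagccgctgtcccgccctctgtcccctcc
Fasn: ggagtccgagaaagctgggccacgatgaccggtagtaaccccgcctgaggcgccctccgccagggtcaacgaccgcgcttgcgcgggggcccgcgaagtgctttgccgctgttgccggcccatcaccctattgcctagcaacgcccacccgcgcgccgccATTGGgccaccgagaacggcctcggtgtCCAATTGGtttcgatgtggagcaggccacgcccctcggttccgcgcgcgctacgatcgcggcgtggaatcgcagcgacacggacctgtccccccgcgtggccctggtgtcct
Lss: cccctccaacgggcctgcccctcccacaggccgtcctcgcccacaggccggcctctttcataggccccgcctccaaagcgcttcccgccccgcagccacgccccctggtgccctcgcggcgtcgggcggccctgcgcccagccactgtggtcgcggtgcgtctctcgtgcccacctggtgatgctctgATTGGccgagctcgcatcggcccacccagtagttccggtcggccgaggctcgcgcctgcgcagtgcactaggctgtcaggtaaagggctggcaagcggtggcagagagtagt
Cyp51: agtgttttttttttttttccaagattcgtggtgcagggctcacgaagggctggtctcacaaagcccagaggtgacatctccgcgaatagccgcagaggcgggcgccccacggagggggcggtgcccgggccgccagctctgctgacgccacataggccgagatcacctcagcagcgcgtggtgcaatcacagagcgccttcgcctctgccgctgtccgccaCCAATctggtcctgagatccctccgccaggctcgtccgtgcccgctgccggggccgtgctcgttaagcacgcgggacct
Msmo1: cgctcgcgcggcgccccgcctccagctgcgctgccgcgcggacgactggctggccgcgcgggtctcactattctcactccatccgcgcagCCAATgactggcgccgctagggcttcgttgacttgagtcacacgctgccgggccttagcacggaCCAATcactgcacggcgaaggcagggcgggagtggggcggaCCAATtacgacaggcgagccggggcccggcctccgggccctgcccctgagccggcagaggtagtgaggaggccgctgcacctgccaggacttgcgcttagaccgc
The promoter of Hmgcs1 holds TCACCCCAC starting 137 bases before the start (position -137) on the gene's strand, and in Fasn a CCAAT and an ATTGG overlap.

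RefSeq promoters were matched for 28 of the 35 members, 39 promoters in all, and both strands were searched. CCAAT was found in 24 of the 28 genes (85.7%), beside 41.1% of all 27025 genes with a promoter of the same length. The GC box GGGCGG, or CCGCCC, was found in 20 of 28 (71.4%), beside 38.2% of all genes. Counted per promoter, both were found in 64.1% of the 39, beside 37.4% and 35.7% of all 32851 promoters. By role, CCAAT and the GC box were found in 7 and 7 of 7 matched genes from squalene to cholesterol, 5 and 4 of 5 of the mevalonate steps, 4 and 5 of 5 of SREBP control, 5 and 2 of 6 of fatty acid synthesis, 2 and 1 of 3 of desaturation and elongation and 1 and 1 of 2 of triacylglycerol synthesis. TCACNCCAC was found in Hmgcs1 alone, 1 of 28 (3.57%), beside 1.44% of all genes. These matches describe letters in a window, and the shares were not matched for base composition. Forms of the sterol regulatory element other than TCACNCCAC were not searched for, so members without this match may still hold one. Fdps, Scd1, Scd2, Sqle, Fdft1, Dgat1 and Dgat2 are the other 7 members. All 35 are protein coding and lie on 15 chromosomes, with Acly, Acaca, Fasn and Srebf1 on chromosome 11 and Scd1, Scd2 and Gpam on chromosome 19.

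All 35 members were present at 1 TPM or more in every tumor, so each passed the filter on low values. Their levels spanned a wide range: 6 had a mean over the 12 tumors above 100 TPM (Scd1, Srebf1, Scd2, Acly, Thrsp and Me1) and 5 had a mean below 10 TPM (Mvk, Hsd17b7, Nsdhl, Acacb and Mvd, the last at 3.25 TPM). Scd1, the desaturase that makes oleate from stearate, had a mean of 1398 TPM and ranked at 24 of the 21960 genes. It alone made up between 23.6% and 52.7% of the summed level of the 35 members. That sum was 3323, 3145 and 3931 TPM in the IgG1 tumors, 2817, 3519 and 3001 TPM in the anti-PD-1 tumors, 2847, 5241 and 3196 TPM in the DOX/IgG1 tumors and 4492, 5962 and 3246 TPM in the DOX/anti-PD-1 tumors. The members thus took 0.408% to 0.822% of the summed TPM of a tumor, with the highest sums in DOX/anti-PD-1 replicate 2, DOX/IgG1 replicate 2 and DOX/anti-PD-1 replicate 1.

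Srebf1 was the second most abundant member at a mean of 429 TPM, while Srebf2, which encodes the other SREBP, had a mean of 40.5 TPM. Levels of the escort and its anchors were similar to that of Srebf2, with means of 45.8 TPM for Scap, 43.3 TPM for Insig1 and 53.1 TPM for Insig2. Among the acetyl-CoA carboxylases, Acaca had a mean of 56.3 TPM and Acacb, the form of the mitochondrial surface, 5.80 TPM. Acly, the most abundant gene of fatty acid synthesis, stood at 169, 192 and 186 TPM in the IgG1 tumors, 183, 145 and 145 TPM in the anti-PD-1 tumors, 126, 214 and 101 TPM in the DOX/IgG1 tumors and 197, 189 and 160 TPM in the DOX/anti-PD-1 tumors. All 4 groups overlapped. Of the sterol genes, Msmo1, which removes methyl groups from the sterol ring, was the most abundant past squalene, at 83.7, 41.8 and 102 TPM with IgG1, 38.5, 107 and 105 TPM with anti-PD-1, 52.2, 97.7 and 135 TPM with DOX/IgG1 and 78.7, 166 and 30.8 TPM with DOX/anti-PD-1. Its highest and its lowest tumor were both in the DOX/anti-PD-1 group, and all groups overlapped. The mevalonate group had means between 3.25 TPM for Mvd and 40.8 TPM for Fdps. Triacylglycerol genes had means from 16.3 TPM for Gpam to 29.0 TPM for Dgat1.

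**Figure D1:**
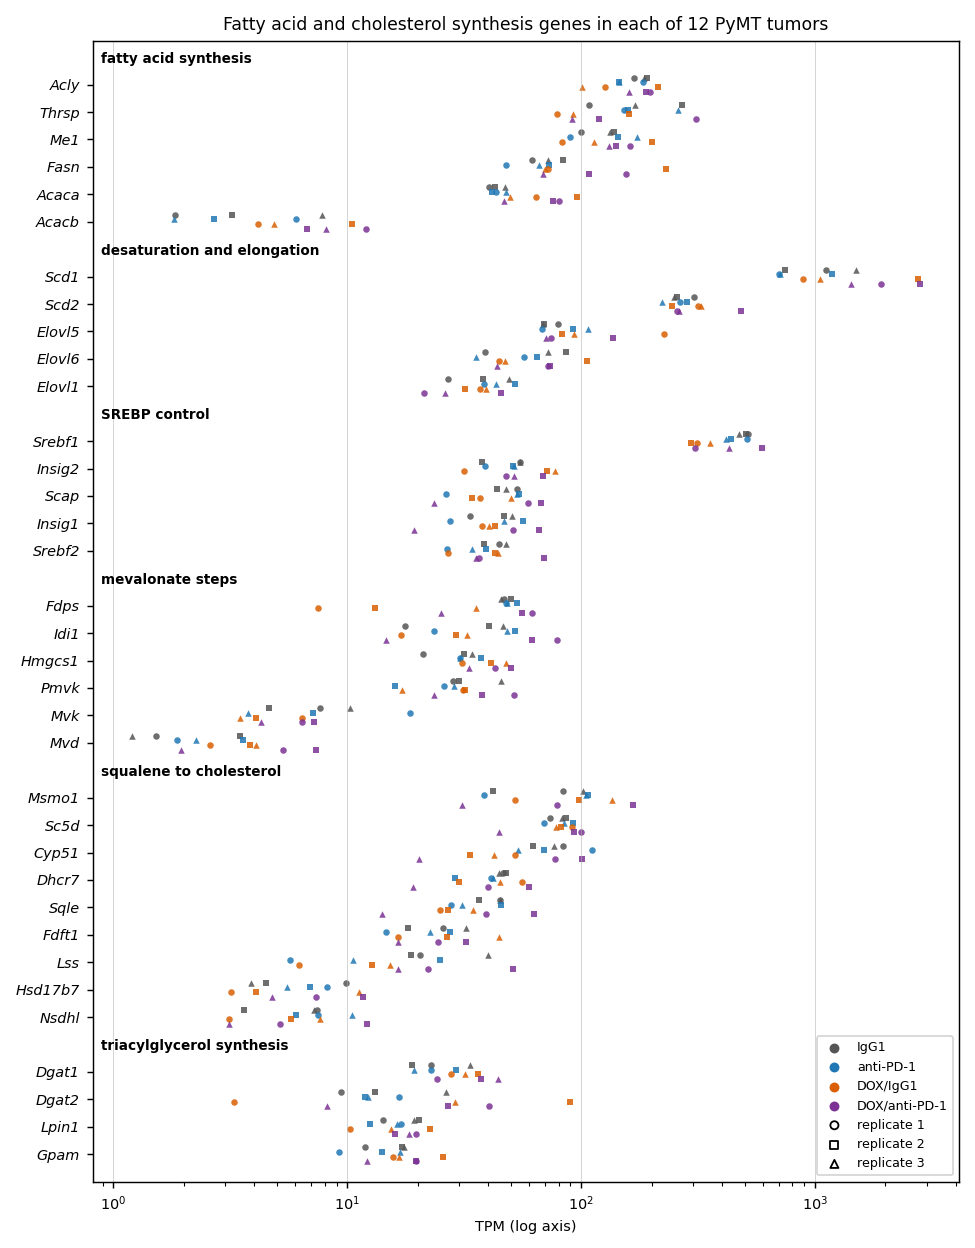
Level of each of the 35 members in each of the 12 tumors, in TPM on a log axis, with members grouped by role and tumors marked by treatment group. Scd1 lies at 698 to 2810 TPM, above every other member in each tumor, and Dgat2 has the widest range, from 3.27 to 89.6 TPM.

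The 12 tumors held RNA of several cell types, and because whole tumors were measured, fewer cells of a type and less RNA per cell cannot be told apart for any member. The 6 luminal epithelium markers summed to 2140 to 3750 TPM per tumor, with Epcam the most abundant at a mean of 729 TPM. Basal epithelium markers (4 genes, most abundant Oxtr) summed to 63.0 to 188 TPM, fibroblast markers (5 genes, Col1a1) to 436 to 1584 TPM, endothelium markers (4 genes, Pecam1) to 44.2 to 110 TPM and leukocyte markers (5 genes, Ptprc) to 99.7 to 262 TPM. The 4 proliferation markers, led by Top2a, summed to 77.7 TPM in DOX/IgG1 replicate 2 and to 413 TPM in anti-PD-1 replicate 2. Skeletal muscle markers (5 genes, Acta1) ranged from 0 TPM in DOX/anti-PD-1 replicate 2 to 626 TPM in DOX/anti-PD-1 replicate 1. Sebaceous gland and skin markers (5 genes, Krt10) summed to 0 to 18.6 TPM, with Awat1 at 0 in every tumor. Of the 3 hepatocyte markers Apoa1 and Apoa2 were at 0 in every tumor, and Alb was at 93.6 TPM in DOX/anti-PD-1 replicate 2, 3.28 TPM in DOX/IgG1 replicate 2, 0.920 TPM in DOX/anti-PD-1 replicate 1 and 0 elsewhere.

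Doxorubicin with the control antibody was compared with the control antibody alone to ask how the chemotherapy arm differs without checkpoint blockade. In DOX/IgG1 tumors 4 members had lower values than in IgG1 tumors at an unadjusted p below 0.05, namely Fdps, Cyp51 and Lss of sterol synthesis and Srebf1 of SREBP control. Of all genes, 2.70% were lower and 5.03% higher at that unadjusted p, and 0 members were higher. Fatty acid and triacylglycerol members had 10 of 15 log2 fold changes above 0 and a median of 0.29, and sterol members 5 of 15 and a median of -0.13, beside 60.6% above 0 and a median of 0.12 over all 13874 genes tested. Relative to the median of all genes, 8 of 15 fatty acid and triacylglycerol members and 3 of 15 sterol members lay above it, and the fold change of Fdps is also given relative to it.

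Fdps, which makes farnesyl diphosphate, was the most abundant mevalonate gene and stood at 46.7, 49.9 and 45.3 TPM with IgG1, 47.8, 53.1 and 48.4 TPM with anti-PD-1 and 7.46, 13.1 and 35.6 TPM with DOX/IgG1. Every DOX/IgG1 tumor lay below every IgG1 tumor, with replicates 1 and 2 far below. The group means were 47.3 ± 2.36 and 18.7 ± 14.9 TPM (SD, n = 3), and the log2 fold change was -1.56 (SE 0.48), or -1.68 relative to the median of all genes, with an adjusted p of 0.507 by limma. Lss, which closes the rings of the first sterol, was at 20.5, 18.7 and 40.1 TPM with IgG1. With DOX/IgG1 it was at 6.19, 12.8 and 15.2 TPM. With anti-PD-1 and no doxorubicin it was at 5.66, 24.9 and 10.6 TPM. Again no DOX/IgG1 tumor reached the lowest IgG1 tumor, and the log2 fold change was -1.15 (SE 0.43, adjusted p 0.584). Cyp51, the demethylase of lanosterol, was at 83.3, 62.3 and 76.4 TPM with IgG1, 111, 69.3 and 53.6 TPM with anti-PD-1 and 52.3, 33.6 and 42.5 TPM with DOX/IgG1. DOX/IgG1 and IgG1 tumors did not overlap here either, at a log2 fold change of -0.79 (SE 0.26, adjusted p 0.533). Srebf1 was at 516, 509 and 471 TPM with IgG1, 512, 435 and 418 TPM with anti-PD-1 and 312, 294 and 355 TPM with DOX/IgG1. The spread within IgG1 and DOX/IgG1 was small beside the gap between them, with means of 499 ± 24.6 and 320 ± 31.4 TPM (SD, n = 3), and the log2 fold change was -0.64 (SE 0.21, adjusted p 0.534). All 4 of these genes reached the smallest two-sided p that 3 tumors against 3 can give in an exact permutation test, 0.1.

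None of the 35 members passed the test in this comparison: by limma 0 had an adjusted p below 0.1 with an absolute log2 fold change above 1, beside 5 of all genes (0.0360%), and the smallest adjusted p of a member was 0.507. The 5 became 122 without DOX/IgG1 replicate 1, the tumor with test in its header, 2 without DOX/IgG1 replicate 2 and 0 without any other tumor of the comparison, and the members that passed were 0 each time. Members at an unadjusted p below 0.05 were 0 higher and 4 lower, beside 5.03% and 2.70% of all genes. Groups did not overlap for 7 members, beside 14.0% of all genes: Acaca and Elovl5 were higher, and Fdps, Cyp51, Srebf1, Lss and Sqle lower, in every DOX/IgG1 tumor. Over all 35 members the median log2 fold change was -0.048, with 16 above 0, and it turned to 0.075 without DOX/IgG1 replicate 1 and to 0.065 without IgG1 replicate 3. With TPM scaled by the median of ratios it was -0.16, and the median of all genes went from 0.12 to 0.014. The fold change of Fdps ran from -2.14 without DOX/IgG1 replicate 3 to -1.09 without DOX/IgG1 replicate 1.

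Secretory alveolar markers differed between the same groups in the direction of the sterol members. The 6 genes, led by Csn3, summed to 7561, 4905 and 8608 TPM with IgG1, 6599, 10470 and 7525 TPM with anti-PD-1, 1034, 3300 and 2552 TPM with DOX/IgG1 and 6144, 8526 and 2979 TPM with DOX/anti-PD-1. All 6 had lower values in DOX/IgG1 than in IgG1, at a median log2 fold change of -1.73, 3 of them at an unadjusted p below 0.05, and 0 passed the test by limma. None of the 6 was at 0 in every tumor. Salivary gland markers (5 genes, most abundant Amy1) summed to 6.41, 16.8 and 5.93 TPM with IgG1, 22.4, 5.40 and 22.5 TPM with anti-PD-1, 60.1, 98.0 and 114 TPM with DOX/IgG1 and 19.7, 16.0 and 23.3 TPM with DOX/anti-PD-1. In DOX/IgG1 against IgG1, 2 of the 4 salivary genes tested passed the test, Smr3a and Bpifa2, named after their values were seen, with log2 fold changes of 3.87 and 4.73 and an adjusted p of 0.0334 for each. Other lists with most genes below 0 in DOX/IgG1 against IgG1 were luminal epithelium (5 of 6 below 0, median -0.23, 1 at an unadjusted p below 0.05), proliferation (4 of 4, median -0.65, 0 at an unadjusted p below 0.05), endothelium (3 of 4, median -0.096, 1 at an unadjusted p below 0.05), skeletal muscle (4 of 5, median -1.11, 0 at an unadjusted p below 0.05) and sebaceous gland and skin (2 of 2 tested, median -0.038, 0 at an unadjusted p below 0.05), with 0 passing the test by limma. Basal epithelium (3 of 4, median 0.084), fibroblast (3 of 5, 0.46, 1 lower at an unadjusted p below 0.05) and leukocyte genes (3 of 4 tested, 0.16) were mostly above 0. The part of any of these cells in the lower values of sterol genes was not tested. Luminal epithelium sums were 3741, 2573 and 3194 TPM with IgG1, 2877, 2207 and 2431 TPM with anti-PD-1, 2140, 3249 and 3750 TPM with DOX/IgG1 and 3132, 2826 and 2244 TPM with DOX/anti-PD-1. Proliferation sums were 212, 338 and 290 TPM with IgG1, 338, 413 and 298 TPM with anti-PD-1, 276, 77.7 and 193 TPM with DOX/IgG1 and 391, 331 and 147 TPM with DOX/anti-PD-1. Endothelium sums were 75.7, 95.7 and 105 TPM with IgG1, 78.0, 68.2 and 74.5 TPM with anti-PD-1, 97.6, 103 and 61.9 TPM with DOX/IgG1 and 80.1, 110 and 44.2 TPM with DOX/anti-PD-1. Skeletal muscle sums were 104, 27.3 and 401 TPM with IgG1, 392, 36.6 and 15.8 TPM with anti-PD-1, 16.5, 112 and 158 TPM with DOX/IgG1 and 626, 0 and 116 TPM with DOX/anti-PD-1. Sebaceous gland and skin sums were 2.53, 4.89 and 1.5 TPM with IgG1, 6.98, 14.2 and 18.6 TPM with anti-PD-1, 7.98, 0 and 6.82 TPM with DOX/IgG1 and 11, 5.09 and 2.42 TPM with DOX/anti-PD-1. In all 5 lists the sums of DOX/IgG1 and IgG1 tumors overlapped.

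**Figure D2:**
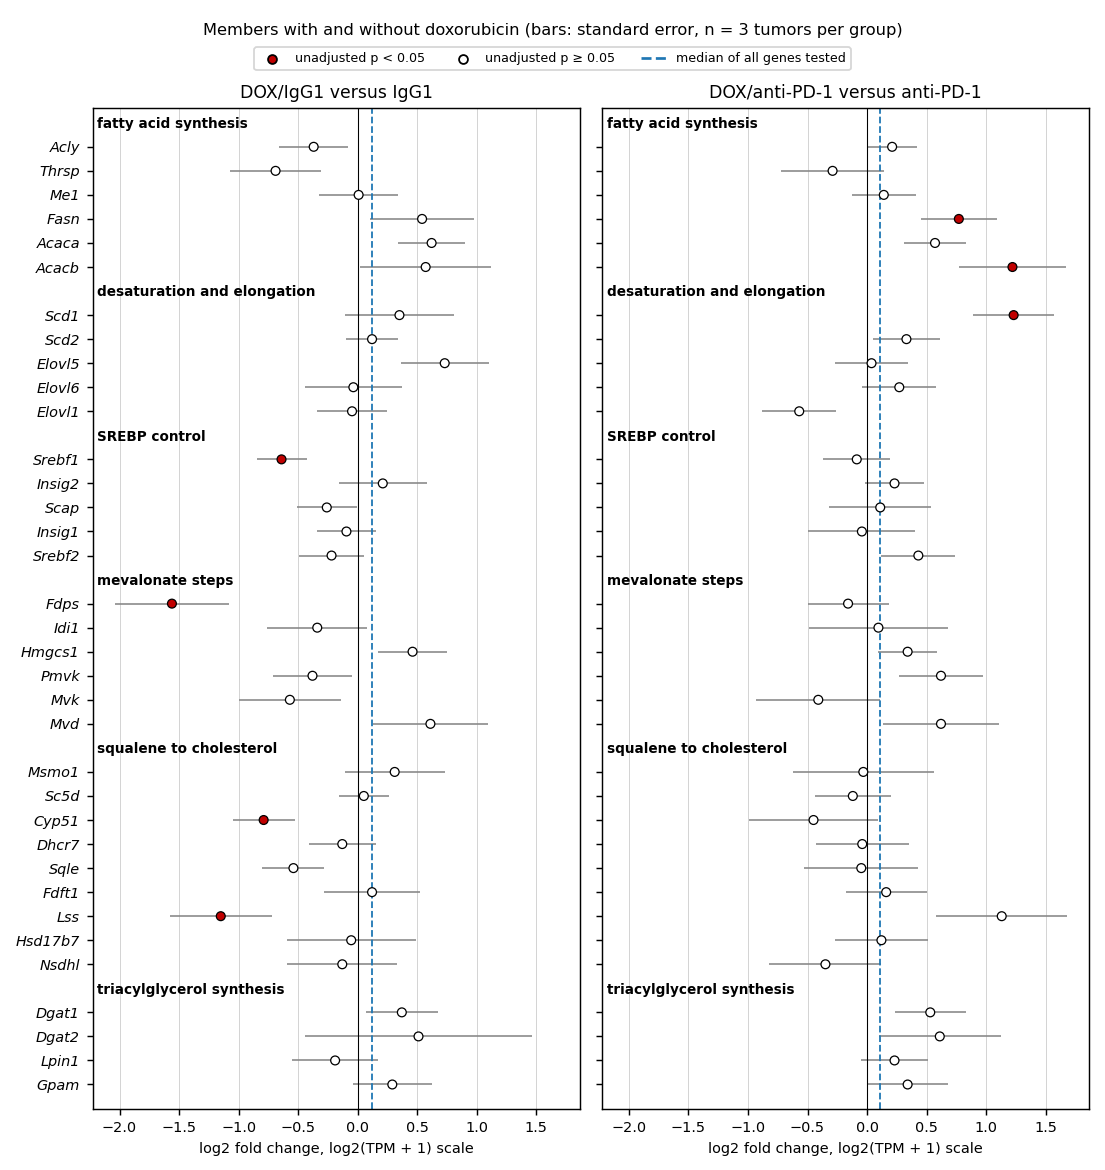
Log2 fold change of each member on the log2(TPM + 1) scale (x axis) for DOX/IgG1 against IgG1 and DOX/anti-PD-1 against anti-PD-1, with bars for the standard error (3 tumors per group), filled points for an unadjusted p below 0.05 and a dashed line at the median of all genes tested. On the left the filled points are Srebf1, Fdps, Cyp51 and Lss, all below 0, and on the right they are Fasn, Acacb and Scd1, all above 0.

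With anti-PD-1 in both arms, Scd1, Acacb and Fasn had higher values in the doxorubicin tumors at an unadjusted p below 0.05, and no member passed the test. At that unadjusted p 6.30% of all genes were higher and 2.33% lower. Of the 15 fatty acid and triacylglycerol members 13 had log2 fold changes above 0, with a median of 0.33, and Elovl1 and Thrsp lay below 0, beside 60.0% of all genes above 0. All 4 triacylglycerol genes were above 0, at a median of 0.44. The 15 sterol members were divided, 7 above 0 and 8 below, with a median of -0.032. The median of all 13736 genes tested was 0.11.

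Scd1 stood at 1114, 742 and 1491 TPM in the IgG1 tumors, 698, 1184 and 707 TPM in the anti-PD-1 tumors, 890, 2764 and 1048 TPM in the DOX/IgG1 tumors and 1905, 2810 and 1425 TPM in the DOX/anti-PD-1 tumors. All 3 DOX/anti-PD-1 tumors lay above all 3 anti-PD-1 tumors, while the DOX/IgG1 and IgG1 groups overlapped. Means were 863 ± 278 TPM with anti-PD-1 and 2047 ± 703 TPM with DOX/anti-PD-1 (SD, n = 3), a log2 fold change of 1.23 (SE 0.34), or 1.13 relative to the median of all genes, with an adjusted p of 0.479. Acacb was at 6.03, 2.68 and 1.81 TPM with anti-PD-1 and at 12.0, 6.71 and 8.11 TPM with DOX/anti-PD-1. These groups did not overlap, and the log2 fold change was 1.22 (SE 0.45, adjusted p 0.522). Fasn, the synthase of palmitate, was at 47.8, 72.7 and 65.8 TPM with anti-PD-1 and at 155, 108 and 68.7 TPM with DOX/anti-PD-1. Here replicate 3 of DOX/anti-PD-1 lay within the range of the anti-PD-1 tumors, and the log2 fold change was 0.77 (SE 0.32, adjusted p 0.549), or 0.49 without DOX/anti-PD-1 replicate 1. The exact permutation p, two-sided, was 0.1 for Scd1 and Acacb and 0.2 for Fasn.

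By limma 0 of 35 members passed the test in this comparison, as did 0 of all genes (0%), and the smallest adjusted p of a member was 0.479. At an unadjusted p below 0.05, 3 members were higher and 0 lower, beside 6.30% and 2.33% of all genes. Groups did not overlap for 2 members, Scd1 and Acacb, beside 14.9% of all genes. The median over the 35 members was 0.16, with 23 above 0, and it moved to 0.47 without DOX/anti-PD-1 replicate 3, to 0.28 without anti-PD-1 replicate 2, to 0.031 without DOX/anti-PD-1 replicate 2 and to 0.037 with TPM scaled by the median of ratios, which takes the median of all genes to -0.0077.

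Adipocyte markers and fatty acid synthesis genes had their highest sums in the same 2 tumors. The 10 adipocyte genes, of which Cfd was the most abundant at a mean of 147 TPM and none was at 0 in every tumor, summed to 111, 380 and 310 TPM with IgG1 and 165, 125 and 189 TPM with anti-PD-1. With doxorubicin the sums were 212, 963 and 167 TPM for DOX/IgG1 and 895, 328 and 266 TPM for DOX/anti-PD-1. The highest sums were in DOX/IgG1 replicate 2 and DOX/anti-PD-1 replicate 1, which also had the highest levels of Fasn, at 230 and 155 TPM. All 10 markers were above 0 in DOX/anti-PD-1 against anti-PD-1, at a median log2 fold change of 1.38, 7 of them at an unadjusted p below 0.05 and 0 passing the test by limma. In DOX/IgG1 against IgG1, 8 of 10 were above 0 at a median of 0.36. Pparg, one of the 10, is also expressed outside adipocytes. In DOX/anti-PD-1 against anti-PD-1 the fibroblast markers were also above 0 in 5 of 5, at a median of 0.77 with 3 at an unadjusted p below 0.05, and basal epithelium markers in 4 of 4, at a median of 0.45 with 1, and 0 of either passed the test by limma. Fibroblast sums were 996, 971 and 1491 TPM with IgG1, 697, 698 and 538 TPM with anti-PD-1, 436, 1584 and 1080 TPM with DOX/IgG1 and 822, 1157 and 1285 TPM with DOX/anti-PD-1. Basal epithelium sums were 134, 64.3 and 130 TPM with IgG1, 63.0, 99.6 and 68.7 TPM with anti-PD-1, 133, 134 and 188 TPM with DOX/IgG1 and 81.7, 164 and 128 TPM with DOX/anti-PD-1. All fibroblast sums of DOX/anti-PD-1 lay above those of anti-PD-1, and basal sums overlapped. Secretory alveolar genes were below 0 in 5 of 6, at a median of -0.67 with 2 lower at an unadjusted p below 0.05, among them Csn1s1 at -1.78 (adjusted p 0.307). Above 0 were 3 of 6 luminal epithelium genes (median -0.036, 1 higher at an unadjusted p below 0.05), 3 of 4 of endothelium (0.10), 3 of 4 leukocyte genes tested (0.20), 2 of 5 of skeletal muscle (-0.24), 1 of 2 salivary genes tested (0.16), 0 of 2 of sebaceous gland and skin (-0.93) and 1 of 4 of proliferation (-0.24). None of these genes passed the test by limma, and the part of any of the cell types was not tested.

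Over both antibodies, all 6 tumors with doxorubicin were set against all 6 without, in a fit that holds the antibody as a term. Higher values at an unadjusted p below 0.05 were found for Acaca, Scd1, Acacb, Fasn, Dgat1 and Hmgcs1, and lower values for Fdps. At that unadjusted p 8.82% of all genes were higher and 3.16% lower. Fatty acid and triacylglycerol members had 12 of 15 log2 fold changes above 0 and a median of 0.32, sterol members 6 of 15 and a median of -0.037, and all 14735 genes tested 63.3% and a median of 0.12.

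Acaca, which makes the malonyl-CoA used by Fasn, had the smallest p of the members. Its level was 40.4, 42.7 and 47.2 TPM with IgG1, 43.3, 41.4 and 47.9 TPM with anti-PD-1, 63.9, 96.4 and 49.6 TPM with DOX/IgG1 and 80.6, 75.5 and 46.9 TPM with DOX/anti-PD-1. The 6 tumors without doxorubicin lay between 40.4 and 47.9 TPM, and of those with it only DOX/anti-PD-1 replicate 3 lay within that range. The log2 fold change was 0.60 (SE 0.19), or 0.48 relative to the median of all genes, with an adjusted p of 0.242 by limma and an exact permutation p of 0.01, two-sided, where 0.005 is the smallest possible. Acacb, at 1.83, 3.22 and 7.82 TPM with IgG1 and 4.14, 10.5 and 4.84 TPM with DOX/IgG1 beside the values above, had a log2 fold change of 0.89 (SE 0.36, adjusted p 0.347). Its tumors with and without doxorubicin overlapped. Fasn, at 61.7, 84.0 and 71.8 TPM with IgG1 and 72.4, 230 and 69.8 TPM with DOX/IgG1, had a log2 fold change of 0.66 (SE 0.28, adjusted p 0.373). DOX/IgG1 replicate 2 stood far above the rest, and without it the log2 fold change of Fasn was 0.42. The other DOX/IgG1 tumors lay within the IgG1 range. For Scd1 the log2 fold change over both antibodies was 0.79 (SE 0.32, adjusted p 0.343).

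Dgat1, which adds the last acyl chain of triacylglycerol, was at 22.9, 18.9 and 33.6 TPM with IgG1, 22.7, 29.1 and 19.2 TPM with anti-PD-1, 27.8, 36.3 and 31.9 TPM with DOX/IgG1 and 24.2, 37.2 and 43.9 TPM with DOX/anti-PD-1. Tumors with and without doxorubicin overlapped, and the log2 fold change was 0.45 (SE 0.20, adjusted p 0.403). Hmgcs1, which makes the HMG-CoA of the mevalonate pathway and whose promoter holds the TCACCCCAC printed above, was at 21.1, 31.4 and 34.1 TPM with IgG1, 30.3, 37.2 and 30.2 TPM with anti-PD-1, 31.0, 41.0 and 47.7 TPM with DOX/IgG1 and 42.6, 50 and 33.0 TPM with DOX/anti-PD-1. Of the 6 tumors with doxorubicin 4 were above every tumor without it, and the log2 fold change was 0.40 (SE 0.18, adjusted p 0.405). Fdps differed the other way at -0.86 (SE 0.35, adjusted p 0.354), with all 3 DOX/IgG1 tumors and DOX/anti-PD-1 replicate 3, at 25.1 TPM, below the 45.3 to 53.1 TPM of the tumors without doxorubicin. Its log2 fold change was -0.57 without DOX/IgG1 replicate 1.

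The exact permutation p, two-sided, was 0.045 for Acacb and Dgat1 and 0.04 for Hmgcs1, and above 0.05 for Scd1 (0.065), Fasn (0.08) and Fdps (0.09). By limma 0 of 35 members passed the test over both antibodies, beside 3 of all genes (0.0204%), and the smallest adjusted p was 0.242. The 3 became 212 without DOX/IgG1 replicate 1 and 27 without DOX/anti-PD-1 replicate 2, and ran from 0 to 6 when any other tumor was left out, with 0 members each time. At an unadjusted p below 0.05, 6 members were higher and 1 lower, beside 8.82% and 3.16% of all genes. The median of the members was 0.073, with 20 above 0. It turned to -0.065 without DOX/anti-PD-1 replicate 2, to -0.049 with TPM scaled by the median of ratios, which takes the median of all genes from 0.12 to 0.0073, and to -0.081 without DOX/IgG1 replicate 2 and DOX/anti-PD-1 replicate 1 together. Those 2 tumors, with the highest adipocyte marker sums, were left out in a choice made after seeing the data. They are also the 2 doxorubicin tumors with the highest sums of fatty acid synthesis genes, so the value without them is not independent of that choice. Adipocyte markers had 9 of 10 log2 fold changes above 0 in the same comparison, at a median of 0.92, with 3 at an unadjusted p below 0.05 and 0 passing the test. The part of adipocytes in the higher values of fatty acid genes was not tested.

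**Figure D3:**
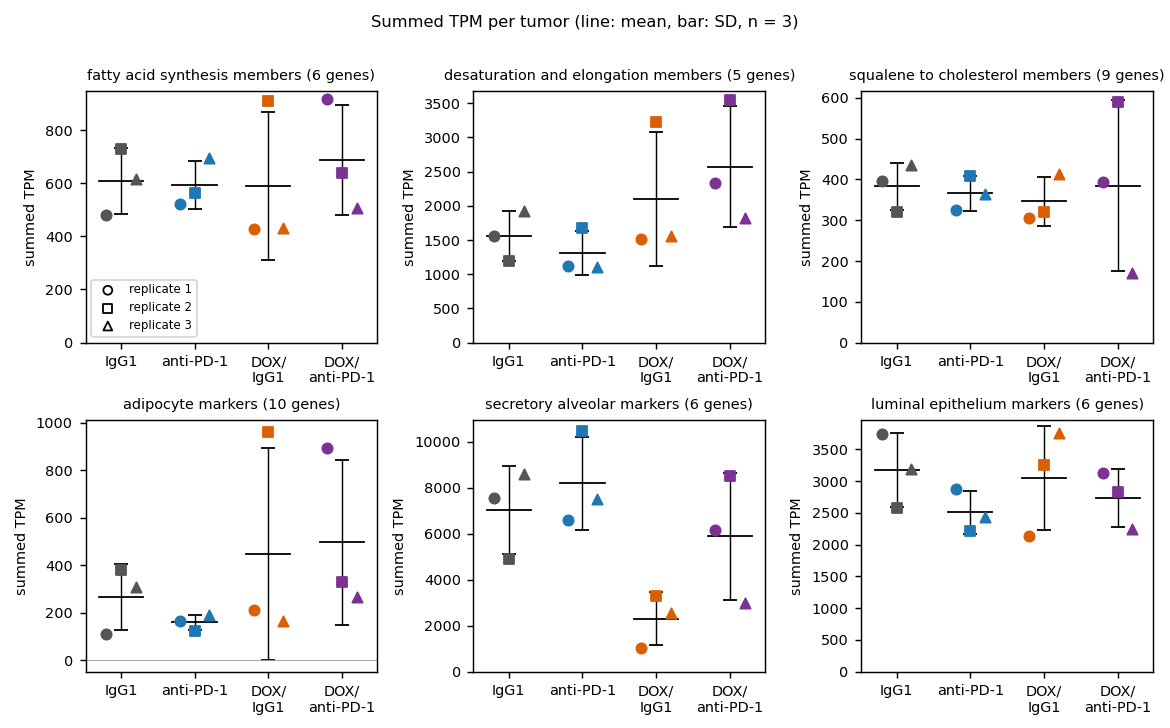
Summed TPM (y axis) in each tumor for 3 role groups of members (top) and 3 lists of cell type markers (bottom), with a line for the mean and a bar for the SD of 3 tumors per group. DOX/IgG1 replicate 2 and DOX/anti-PD-1 replicate 1 are highest for both fatty acid synthesis (910 and 916 TPM) and adipocyte markers (963 and 895 TPM), and DOX/anti-PD-1 replicates 2 and 3 are highest and lowest for squalene to cholesterol (590 and 170 TPM).

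Anti-PD-1 was compared with IgG1 alone to describe checkpoint blockade without chemotherapy. The median log2 fold change of the members was -0.062, with 15 of 35 above 0, beside a median of -0.026 and 47.2% above 0 over all 13692 genes tested. The largest difference was in Lss, at 20.5, 18.7 and 40.1 TPM with IgG1 and 5.66, 24.9 and 10.6 TPM with anti-PD-1. The groups overlapped through anti-PD-1 replicate 2, and the log2 fold change was -1.04 (SE 0.49, adjusted p 0.996). All 4 triacylglycerol genes and all 5 SREBP control genes had values below 0, at medians of -0.17 and -0.14, while 5 of 6 mevalonate genes lay above 0, at a median of 0.17, and 10 of all 15 sterol members, at a median of 0.071. By limma 0 of 35 members passed the test, as did 0 of all genes (0%). At an unadjusted p below 0.05, 0 members were higher and 0 lower, beside 1.75% and 2.85% of all genes, and groups did not overlap for 1 member, Dhcr7, which was lower with anti-PD-1, beside 9.88% of all genes. The median turned to 0.038 without IgG1 replicate 3 and to 0.012 without anti-PD-1 replicate 1. Of the marker lists, adipocyte genes were below 0 in 9 of 10 (median -0.62), luminal epithelium in 6 of 6 (-0.25), fibroblast in 5 of 5 (-0.098), skeletal muscle in 4 of 5 (-0.74), and basal epithelium (-0.35), endothelium (-0.14) and leukocyte (-0.34) in 3 of 4 each. Above 0 were 4 of 6 secretory alveolar genes (0.38), 4 of 4 of proliferation (0.39), 2 of 2 salivary genes tested (0.77) and 2 of 2 of sebaceous gland and skin (1.62). By limma 0 of these passed, with 1 luminal and 1 fibroblast gene lower and 1 secretory and 1 skin gene higher at an unadjusted p below 0.05. Leukocyte sums were 166, 157 and 215 TPM with IgG1, 132, 174 and 108 TPM with anti-PD-1, 99.7, 217 and 262 TPM with DOX/IgG1 and 114, 179 and 155 TPM with DOX/anti-PD-1, the other sums are given above, and the part of these cells was not tested.

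Among tumors given doxorubicin, Fdps and Lss had higher values with anti-PD-1 than with IgG1 at an unadjusted p below 0.05, and no member passed the test. At that unadjusted p 1.81% of all genes were higher and 2.89% lower. All 6 mevalonate genes had log2 fold changes above 0, at a median of 0.38, and 11 of the 15 sterol members, at a median of 0.27, beside 46.3% of all genes. Fdps, at 7.46, 13.1 and 35.6 TPM with DOX/IgG1, was at 61.5, 56.0 and 25.1 TPM with DOX/anti-PD-1. Replicate 3 of DOX/anti-PD-1 lay below replicate 3 of DOX/IgG1, so the groups overlapped, and the log2 fold change was 1.47 (SE 0.56, adjusted p 0.988). Lss, at 6.19, 12.8 and 15.2 TPM with DOX/IgG1, was at 22.2, 51.1 and 16.5 TPM with DOX/anti-PD-1. Its groups did not overlap, and the log2 fold change was 1.24 (SE 0.49, adjusted p 0.988). The exact permutation p, two-sided, was 0.2 for Fdps and 0.1 for Lss. Without DOX/IgG1 replicate 1 the value of Fdps was 0.99, and without DOX/anti-PD-1 replicate 2 that of Lss was 0.78.

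By limma 0 of 35 members passed the test in this comparison, as did 0 of all genes (0%). At an unadjusted p below 0.05, 2 members were higher and 0 lower, beside 1.81% and 2.89% of all genes, and groups did not overlap for 1 member, Lss, beside 10.2% of all genes. The median of the members was 0.19, with 24 above 0, beside -0.037 over all 13946 genes tested. It turned to -0.066 without DOX/anti-PD-1 replicate 2, was 0.026 without DOX/IgG1 replicate 1 and 0.11 without DOX/anti-PD-1 replicate 1, and moved to 0.43 without DOX/anti-PD-1 replicate 3. Secretory alveolar markers again lay on the same side as the sterol genes, with 6 of 6 above 0 at a median of 1.69, 4 at an unadjusted p below 0.05 and 0 passing the test. So did proliferation markers, with 4 of 4 above 0 at a median of 0.64, 0 at an unadjusted p below 0.05 and 0 passing. Others with most genes above 0 were adipocyte (7 of 10, median 0.21), skeletal muscle (4 of 5, 0.35), sebaceous gland and skin (2 of 2 tested, 0.73), basal epithelium (3 of 4, 0.19) and fibroblast (3 of 5, 0.015). Endothelium had 2 of 4 above 0 (0.046), luminal epithelium 2 of 6 (-0.04), leukocyte 0 of 4 tested (-0.19) and salivary gland 0 of 4 tested (-2.42, 3 lower at an unadjusted p below 0.05), again with 0 passing, and the part of these lists was not tested.

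Averaged over both chemotherapy arms, anti-PD-1 tumors against IgG1 tumors gave the members a median log2 fold change of 0.0061, with 19 of 35 above 0, beside -0.031 and 45.6% over all genes. Fdps was the 1 member at an unadjusted p below 0.05, at 0.77 (SE 0.35, adjusted p 0.999, exact permutation p 0.12, two-sided), and at 0.48 without DOX/IgG1 replicate 1. By limma 0 members passed the test, as did 0 of all genes (0%), with 1 member higher and 0 lower at an unadjusted p below 0.05, beside 1.78% and 2.91% of all genes. Secretory alveolar genes were above 0 in 6 of 6 (median 0.66, 2 at an unadjusted p below 0.05), proliferation in 4 of 4 (0.56), sebaceous gland and skin in 2 of 2 tested (1.18, 1 at an unadjusted p below 0.05), skeletal muscle in 3 of 5 (0.21), basal epithelium in 2 of 4 (0.015), endothelium in 2 of 4 (-0.11, 1 lower at an unadjusted p below 0.05), adipocyte in 4 of 10 (-0.17), luminal epithelium in 1 of 6 (-0.13), fibroblast in 0 of 5 (-0.20), leukocyte in 0 of 4 tested (-0.28) and salivary gland in 1 of 4 tested (-0.99, 2 lower at an unadjusted p below 0.05). None passed the test by limma, and their part was not tested. The sign of so small a median turned without DOX/IgG1 replicate 1 (-0.033) and without DOX/anti-PD-1 replicate 2 (-0.11).

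Whether doxorubicin differed in its association with the members between the antibodies was tested with an interaction term. Lss had the largest value, 2.28 (SE 0.76, adjusted p 0.993), since its log2 fold change with doxorubicin was -1.15 beside IgG1 and 1.13 beside anti-PD-1. Fdps followed at 1.40 (SE 0.63, adjusted p 0.993), or 0.92 without DOX/IgG1 replicate 1, and the values were 0.55 (SE 0.35) for Srebf1 and 0.88 (SE 0.62) for Scd1. By limma 0 of 35 members passed the test, beside 1 of all genes (0.00679%), the salivary gene Bpifa2 at -4.73 (adjusted p 0.0909). At an unadjusted p below 0.05, 2 members were higher and 0 lower, beside 2.26% and 2.45% of all genes. A difference between the antibodies in what doxorubicin tumors showed was therefore not established for any member. The median interaction was 0.17, with 28 of 35 above 0 beside 49.4% of all genes, and it ran from 0.025 without DOX/anti-PD-1 replicate 2 to 0.52 without DOX/anti-PD-1 replicate 3, with 0.087 without DOX/IgG1 replicate 1 and 0.093 without DOX/anti-PD-1 replicate 1. Marker lists with most genes above 0 in the interaction were adipocyte (9 of 10, median 0.89), luminal epithelium (6 of 6, 0.31), secretory alveolar (4 of 6, 0.93), basal epithelium (3 of 4, 0.52), fibroblast (3 of 5, 0.09), endothelium (3 of 4, 0.35), leukocyte (3 of 4 tested, 0.11), skeletal muscle (4 of 5, 1.48) and proliferation (3 of 4, 0.34), with 0 passing by limma and 2 fibroblast and 1 secretory gene at an unadjusted p below 0.05. Salivary genes were below 0 in 4 of 4 tested (-3.44, 2 at an unadjusted p below 0.05) and genes of sebaceous gland and skin in 2 of 2 (-0.89). Their part was not tested. The 4 pairwise comparisons share groups of tumors, so their values are not independent of each other.

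Other genes of lipid metabolism, 81 in 6 lists, were read from the same fits, and 0 of them passed the test by limma in any of the 7 comparisons. For doxorubicin over both antibodies, 6 of the 8 fatty acid uptake genes tested were above 0, beside 63.3% of all genes, at a median log2 fold change of 0.63, with 4 higher and 1 lower at an unadjusted p below 0.05. Fatty acid oxidation genes were above 0 in 12 of 12, at a median of 0.42, with 1 at an unadjusted p below 0.05. Medians were 0.22 for 25 other fatty acid synthesis genes tested (15 above 0), 0.077 for 6 other sterol synthesis genes (4 above 0), 0.058 for 14 other glycerolipid and droplet genes (10 above 0) and 0.043 for 14 genes of sterol uptake, export and regulation (7 above 0), beside 0.12 for all genes. Across the lists 11 genes were higher and 2 lower at an unadjusted p below 0.05 of the 79 tested, beside 8.82% and 3.16% of all genes. Those with the smallest p were G6pdx, which makes the NADPH used by Fasn, at 0.70 (adjusted p 0.216), Lpin2 at 0.81 (adjusted p 0.220), the acetyl-CoA synthetase Acss2 at 0.79 (adjusted p 0.247) and Gpat4 at -0.55 (adjusted p 0.290).

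The single doxorubicin comparisons gave different leading genes in these lists. In DOX/IgG1 against IgG1, where 4 of 78 were higher and 4 lower at an unadjusted p below 0.05, beside 5.03% and 2.70% of all genes, the smallest p belonged to the lipoprotein receptor Vldlr at 0.83 (adjusted p 0.469), with Lpin2 at 0.86, Cpt1a at 0.67 and G6pdx at 0.82 next. In DOX/anti-PD-1 against anti-PD-1, 8 of 75 were higher and 0 lower, beside 6.30% and 2.33%. The citrate carrier Slc25a1, which exports the substrate of Acly from mitochondria, was at 1.74 (SE 0.31, adjusted p 0.429). Next came Cpt1b, the carnitine transferase of muscle, at 2.91 (adjusted p 0.429), the fatty acid receptor Cd36 at 1.49 (adjusted p 0.489) and the transporter Slc27a1 at 1.20 (adjusted p 0.495). Cpt1b also had the lowest p among these lists in the interaction, at 4.44 (adjusted p 0.938), followed by Xdh at 1.11, Slc25a1 at 1.88 and Abcg1 at -0.97, where 3 of 79 were higher and 1 lower at an unadjusted p below 0.05, beside 2.26% and 2.45%. Skeletal muscle markers, which range as given above, were above 0 in 4 of 5 in the interaction at a median of 1.48 but in 2 of 5 in DOX/anti-PD-1 against anti-PD-1, at a median of -0.24, and their part in the value of Cpt1b was not tested.

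In anti-PD-1 against IgG1, 2 of 76 other lipid genes were higher and 3 lower at an unadjusted p below 0.05, beside 1.75% and 2.85% of all genes, led by Lpcat3 at -1.06 (adjusted p 0.734) and Cpt1b at -2.04 (adjusted p 0.761), then Acat2, an acetyl-CoA acetyltransferase at the entry to sterol synthesis, at 1.04 and Slc25a1 at -0.89. Anti-PD-1 against IgG1 among doxorubicin tumors gave 3 of 78 higher and 3 lower, beside 1.81% and 2.89%, led by Cpt1b at 2.40, Cpt1a at -0.80, Acsl4 at 0.67 and the sterol exporter Abcg1 at -0.95, each with an adjusted p of 0.988. All 6 genes of the other sterol synthesis list were above 0 there, at a median of 0.46, on the same side as the mevalonate members. Averaged over both arms, 2 of 79 were higher and 4 lower with anti-PD-1, beside 1.78% and 2.91%, led by Acsl4 at 0.63 (adjusted p 0.668), Scd4 at -1.05 (adjusted p 0.729), Lpcat3 at -0.75 (adjusted p 0.832) and Acat2 at 0.84 (adjusted p 0.911).

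Remaining marker lists in the comparison of doxorubicin over both antibodies were as follows, each as a median log2 fold change with 0 genes passing the test by limma. Secretory alveolar genes had a median of -1.17 (0 of 6 above 0, 4 lower at an unadjusted p below 0.05) and salivary gland genes 1.49 (4 of 4 tested above 0, 3 at an unadjusted p below 0.05). Luminal epithelium genes had -0.13 (1 of 6 above 0), basal epithelium 0.34 (4 of 4), fibroblast 0.28 (3 of 5), endothelium 0.077 (3 of 4) and leukocyte 0.18 (3 of 4 tested). Proliferation genes had -0.39 (0 of 4 above 0), skeletal muscle -0.24 (2 of 5), sebaceous gland and skin -0.48 (0 of 2 tested), and no hepatocyte gene reached the filter. Luminal epithelium, at an unadjusted p below 0.05, had 1 gene higher and 1 lower, fibroblast 1 higher, proliferation 2 lower, and the other lists of this paragraph past the salivary genes 0.

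Differences between tumors of 1 group were large for many members. The median within-group SD of a member was 0.52 on the log2 scale, beside 0.48 for all 14735 genes tested and 0.40 for the 9393 of them with a mean of at least 10 TPM. Sterol members had a median SD of 0.59 and fatty acid and triacylglycerol members 0.43. Dgat2, a triacylglycerol enzyme abundant in fat cells, varied most among the members with an SD of 1.31, and its highest level was 27.4 times its lowest. Srebf1 varied least, with an SD of 0.26.

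The sterol genes of the DOX/anti-PD-1 group moved as a block from tumor to tumor, together with other members. In replicate 2 all 15 sterol members lay above their group mean, by a median of 0.58 on the log2 scale, and in replicate 3 all 15 lay below it, by a median of -0.75. In replicate 1, 12 of 15 were above, at a median of 0.15. Of all 35 members 24, 31 and 3 lay above in replicates 1, 2 and 3, beside 43.0%, 60.3% and 47.2% of all genes tested, at medians of -0.064, 0.098 and -0.021. Desaturation and elongation genes (5 of 5, median 0.59) and SREBP control genes (5 of 5, 0.55) were also above in replicate 2, the tumor with the highest summed TPM of the series. Sqle, the epoxidase of squalene, stood at 39.2, 62.7 and 14.1 TPM in these 3 tumors, and Cyp51 at 77.4, 101 and 20.3 TPM. Srebf1, at 306, 594 and 428 TPM, was also highest in replicate 2 but lowest in replicate 1. Replicate 3 was thus the lowest tumor of the series for Cyp51 and Sqle. Of the hepatocyte markers Alb was at 0.920, 93.6 and 0 TPM in replicates 1, 2 and 3, and Apoa1 and Apoa2 were at 0 in all 3. Secretory alveolar markers summed to 6144, 8526 and 2979 TPM and endothelium markers to 80.1, 110 and 44.2 TPM in these tumors, highest in replicate 2 and lowest in replicate 3 as the sterol genes were. Luminal epithelium markers, at 3132, 2826 and 2244 TPM, and proliferation markers, at 391, 331 and 147 TPM, were also lowest in replicate 3 but highest in replicate 1. The part of these cells in the block was not tested. In the DOX/IgG1 group the 9 genes from squalene to cholesterol deviated by medians of -0.59, -0.029 and 0.47 in replicates 1, 2 and 3.

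Fatty acid synthesis genes shared the low values of DOX/IgG1 replicate 1 and DOX/anti-PD-1 replicate 3 but were highest in a different tumor. In DOX/IgG1 replicate 2 all 6 lay above their group mean, at a median of 0.65, and in replicates 1 and 3 of that group 0 of 6 did, at medians of -0.43 and -0.35. In DOX/anti-PD-1 the medians were 0.35, 0.0037 and -0.33 in replicates 1, 2 and 3, with 6, 3 and 0 of 6 above the mean. In the 6 tumors without doxorubicin the medians of fatty acid synthesis and of squalene to cholesterol all lay between -0.27 and 0.18.

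**Figure D4:**
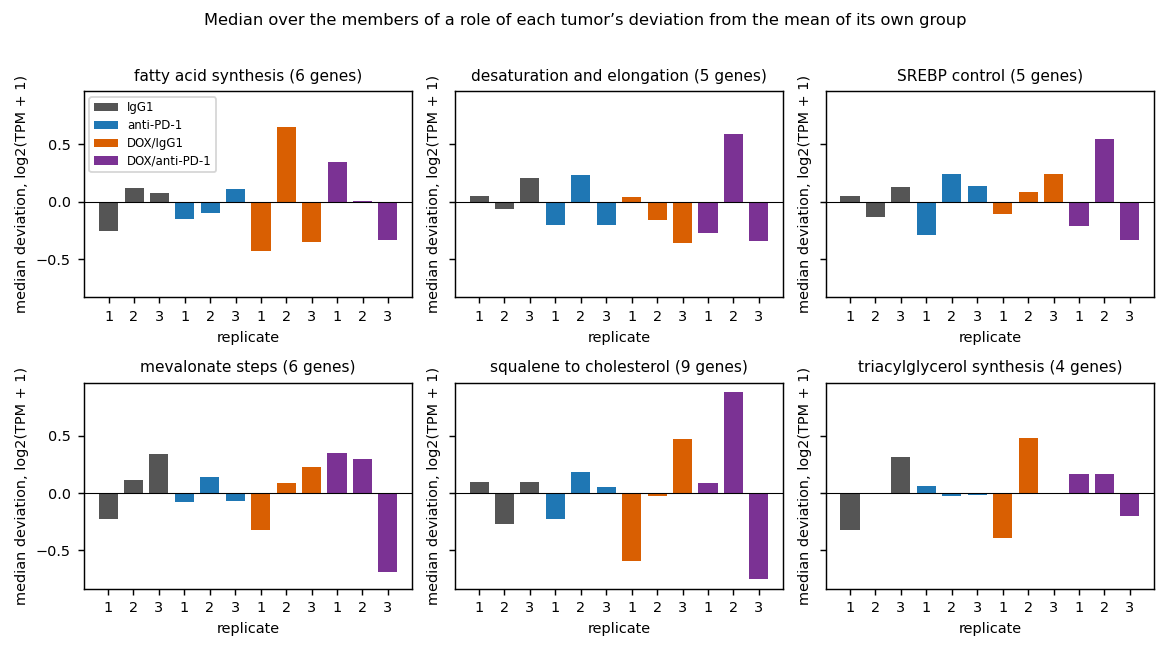
Median deviation of each role group of members from its treatment group mean (y axis, log2) in each of the 12 tumors (x axis). Genes from squalene to cholesterol range from 0.88 in DOX/anti-PD-1 replicate 2 to -0.75 in DOX/anti-PD-1 replicate 3, and fatty acid synthesis genes are highest in DOX/IgG1 replicate 2 at 0.65.

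Correlations between members were computed over the 12 tumors after group means were removed, as a description without p, and with the tumors, libraries and cell mixtures shared by all pairs. Members of 1 role had a median Pearson r of 0.50 over 92 pairs, 81 of them above 0, and members of different roles 0.29 over 503 pairs, beside 0.047 for all 108552745 pairs of genes tested. Within fatty acid synthesis the median was 0.64, with 15 of 15 pairs above 0, and from squalene to cholesterol it was 0.58, with 36 of 36 above 0. Between these 2 role groups the median was 0.083, with 34 of 54 above 0. SREBP control genes had a median r of 0.54 with the genes from squalene to cholesterol and 0.071 with those of fatty acid synthesis, while triacylglycerol genes had 0.61 with fatty acid synthesis and 0.12 with squalene to cholesterol.

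The same calculation was made with marker genes. Fatty acid synthesis genes had a median r of 0.66 with adipocyte markers, with 60 of 60 pairs above 0, and genes from squalene to cholesterol had -0.044, with 37 of 90 above 0. The 15 sterol members together had a median r of 0.38 with endothelium markers (54 of 60 above 0), 0.32 with luminal epithelium markers (81 of 90) and 0.29 with proliferation markers (52 of 60). With secretory alveolar markers gene by gene it was 0.094 (55 of 90). The summed level of that list is mostly that of 1 gene, Csn3, at a mean of 5318 TPM. Among sterol members r with this sum ran from 0.016 for Mvk to 0.85 for Msmo1. It was 0.83 for Fdft1, 0.80 for Lss and 0.75 for Sqle and Nsdhl. Members of other roles had such values too, among them 0.84 for Scd1 and Srebf2, 0.82 for Insig2, 0.81 for Dgat2, 0.60 for Gpam and 0.58 for Fasn. With the summed luminal epithelium list, r of sterol members ran from 0.088 for Sc5d to 0.73 for Hsd17b7. With summed endothelium markers it ran from -0.094 for Hsd17b7 to 0.75 for Pmvk and Sc5d, and with summed leukocyte markers from -0.46 for Pmvk to 0.71 for Fdft1. For fatty acid synthesis genes the gene by gene medians were 0.24 with secretory alveolar markers (24 of 36), 0.53 with endothelium (23 of 24), 0.16 with luminal epithelium (31 of 36) and -0.20 with proliferation (5 of 24). With fibroblast markers the median was 0.31 (27 of 30), and for triacylglycerol genes it was 0.55 (19 of 20). Within the role groups r was also computed over selections of tumors, which were picked after seeing the data. The tumors left out include those furthest from their group mean for the same genes, so a lower r without them follows in part from the choice. In the 6 tumors without doxorubicin the median r was 0.13 within fatty acid synthesis and 0.017 from squalene to cholesterol, and in the 6 with doxorubicin it was 0.82 and 0.81. All pairs of genes tested had medians of 0.077 and 0.027 in these selections, each of only 6 tumors with 2 group means removed. Without DOX/anti-PD-1 replicates 2 and 3 the median from squalene to cholesterol was 0.19, with 21 of 36 pairs above 0. Without the 2 tumors with the highest adipocyte marker sums the median within fatty acid synthesis was 0.091, with 11 of 15 above 0, while from squalene to cholesterol it was 0.64, with 36 of 36 above 0. The relation of fatty acid synthesis to adipocyte markers remained above 0 in each selection, at 0.44 (53 of 60 pairs) without those 2 tumors, 0.55 (56 of 60) in the 6 tumors without doxorubicin and 0.86 (60 of 60) in the 6 with it. The part of adipocytes in the shared variation of fatty acid genes was not tested.

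**Figure D5:**
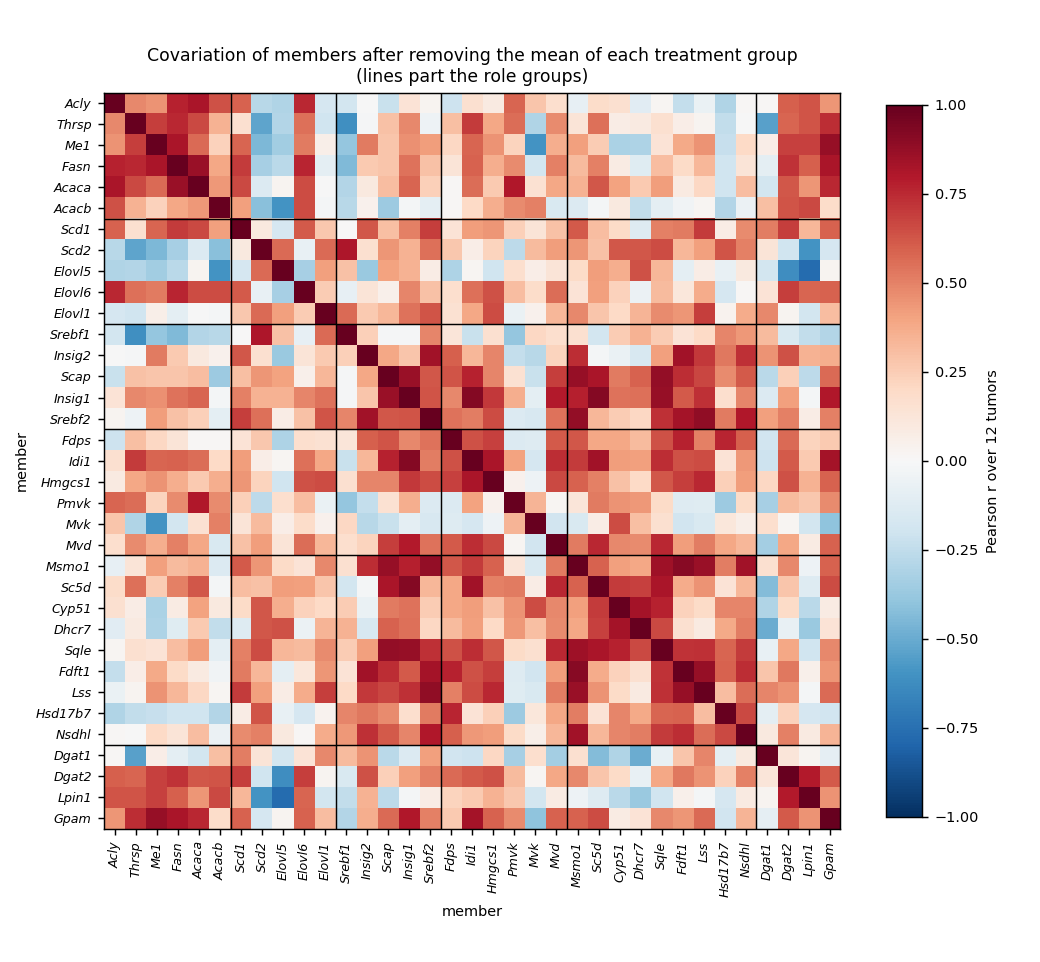
Pearson r between each pair of the 35 members over 12 tumors after removing group means (color scale from -1 to 1), with members ordered by role on both axes. Blocks of high r lie within fatty acid synthesis (median 0.64) and from squalene to cholesterol (median 0.58), with low r between them (median 0.083).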

How the data were processed

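The deposited tables hold values for 21960 genes in each of 12 tumors, with decimal commas, and name no unit. The study's methods mention log2 TPM, and the values were read as log2(TPM + 1). The authors trimmed reads with skewer, used STAR on mm10 and took gene levels from RSEM. With that log2 reversed, 100.0% of 67731 values above 0 and up to 10 TPM lay within 0.001 of a multiple of 0.01, where 20.0% would if spread evenly. TPM keep no depth, so counting error is unknown.

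Genes reaching 1 TPM in at least 3 tumors of a fit were tested on log2(TPM + 1) with limma 3.58.1 (R 4.3.3, trend on), two-sided, with Benjamini-Hochberg adjustment over all genes tested. A gene passed when its adjusted p was below 0.1 and its log2 fold change above 1 in size. The study used DESeq2 at these limits, which was not run here, and reported differing genes in each of the 4 pairwise comparisons. Pairs of groups were fitted alone, and the doxorubicin, anti-PD-1 and interaction terms on 12 tumors. Single members also had an exact permutation test of tumor labels, within antibody for doxorubicin over both. Medians, counts and correlations were computed in Python 3.11.15 with numpy 2.4.6 and pandas 2.3.3. Tumors were treated as unpaired.

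The 35 members, 81 other lipid genes (80 by symbol, Gpat3 by identifier) and 62 markers were chosen with earlier results of these data known. Values in every tumor are given for the most abundant member of each role and for up to 6 members per comparison (8 over both antibodies) with the smallest p among those with an unadjusted p below 0.05, and up to 4 other lipid genes are named likewise. Coordinates are from GENCODE (vM21) and promoters from RefSeq. Alternatives were a pseudocount of 0.1 TPM, a minimum of 5 TPM or none, scaling to the same total or by the median of ratios, replicate number as a block, 1 fit of 12 tumors, no fold limit and leaving out tumors.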

Additional observations from a re-analysis of the deposited data

How the results depend on the processing

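In all 116 alternatives run, over the 7 comparisons, 0 of the 35 members passed the test by limma. The smallest adjusted p of a member among them was 0.148, for doxorubicin over both antibodies without DOX/IgG1 replicate 1. Each of 298 alternatives to the values of members at an unadjusted p below 0.05 kept its direction, and other named values had none. Of 109 alternative medians over the members, 107 moved by less than 0.29 on the log2 scale, 1 SD of the median deviation of the members between tumors of a group, and 2 moved by more. That limit is larger in size than the main median of every comparison, so a median can change sign within it. When each tumor was left out in turn, the median ran from 0.031 to 0.47 for DOX/anti-PD-1 against anti-PD-1 and from 0.025 to 0.52 for the interaction, in both highest without DOX/anti-PD-1 replicate 3. Leave-one-out medians crossed 0 for DOX/IgG1 against IgG1 (-0.15 to 0.075), anti-PD-1 against IgG1 (-0.12 to 0.038), DOX/anti-PD-1 against DOX/IgG1 (-0.066 to 0.43), doxorubicin over both antibodies (-0.065 to 0.18) and anti-PD-1 over both arms (-0.11 to 0.12). The cause was not tested. Scaling by the median of ratios took the median for doxorubicin over both antibodies from 0.073 to -0.049 as it took that of all genes from 0.12 to 0.0073, and relative to all genes the members lay at -0.043 before scaling. Without DOX/IgG1 replicate 1 the count of all genes that passed went from 5 to 122 in DOX/IgG1 against IgG1 and from 3 to 212 for doxorubicin over both antibodies.

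Tumors of different groups with the same replicate number had a median r of 0.017 over 18 pairs (-0.096 to 0.13, 4 above 0.1), and those with different numbers -0.0044 over 36 pairs (-0.19 to 0.11, 3 above 0.1). They were treated as unpaired. With replicate number as a block, which leaves every fold change as it is in this balanced design, 0 members passed in any comparison. Read depth is unknown, and with 3 tumors against 3 the exact permutation test cannot go below 0.1.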
